A study of Mus musculus with 6 samples.

Results

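Krt7, Krt19, Epcam, Cd24a, Prom1, Sox9, Sox4, Spp1 and Cftr, 9 of the 17975 genes in the expression table, were compared between the livers of hepatocyte NEK7 knockout (Hom) and WT mice. They were taken by gene symbol as markers of cholangiocytes, the epithelial cells that line the bile ducts, and of the ductular reaction. RNA came from whole liver tissue of 3 Hom and 3 WT mice. The Hom mice were NEK7 fl/fl-Alb-Cre+, in which Cre recombinase is driven by the albumin promoter. The breeding scheme of the study gives the WT mice as carrying either NEK7 fl/fl or Alb-Cre(+) alone, and it does not say which of these each sequenced WT mouse was. The study gives an age range for its laboratory mice in general, but the age of those that were sequenced is not given in the sources used here. The labels name no treatment. The albumin promoter is active in hepatocytes and also in fetal hepatoblasts, the shared precursors of hepatocytes and cholangiocytes.

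Cholangiocytes form the ducts that carry bile out of the liver and modify it by secreting bicarbonate and chloride. In injured livers, small ducts and progenitor-like cells with biliary features can expand around the portal tracts, which is known as the ductular reaction. Such cells are recognised by simple-epithelium keratins (Krt7, Krt19), surface glycoproteins (Epcam, Cd24a, Prom1), SOX transcription factors (Sox9, Sox4), the secreted phosphoprotein osteopontin (Spp1) and the chloride channel of the apical membrane (Cftr). Several of these genes are also used by other cells: Spp1 by macrophages, Cd24a by immature blood cells and B cells, and both keratins by the mesothelium that covers the liver.

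The estimated read counts summed to between 19349418 and 19730236 per liver. The albumin gene (Alb) had 960702 counts or more in every liver. Nek7 was lower in Hom livers (16.4 ± 1.83 CPM, which is counts after TMM scaling for a fixed library total; SD, n = 3) than in WT livers (65.2 ± 3.36; SD, n = 3). Its difference was −1.99 on the log2 scale, at a standard error of 0.10 (adjusted p = 1.59e-04, edgeR). Hom replicate 1 stood apart from the other livers. It had no count for the Y-linked genes Ddx3y and Kdm5d, which had at least 630 and 243 counts in each of the other 5 livers. Of 2 other Y-linked genes, Eif2s3y had 4 counts and Uty 149 in this liver, against at least 582 and 464 in each of the others. The labels give no sex. The study reports that both sexes were used in its experiments with knockout mice. Ddx3y, Kdm5d and Eif2s3y were nearly absent in this liver, as in a female mouse, but Uty was not. The sex of this mouse is not stated in the sources used here, and an effect of sex on the results was not tested. Its mesothelial marker genes summed to 48.3 CPM, against 9.81 and 12.8 in the other Hom livers. Results are therefore also given without this library.

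The 9 genes lie on 7 autosomes in GRCm38 (GENCODE M21). The labels name mm9 as the build used for processing, so these positions serve as annotation only. Krt7 spans chr15:101411043-101430313 on the plus strand, Krt19 chr11:100140810-100148665 on the minus strand, Epcam chr17:87635979-87651129 on the plus strand, and Cd24a chr10:43578284-43584265 on the plus strand. Prom1 spans chr5:43993620-44102032 on the minus strand, and Spp1 chr5:104435118-104441050 on the plus strand. Sox9 spans chr11:112782224-112787760 on the plus strand, Sox4 chr13:28948919-28953713 on the minus strand, and Cftr chr6:18170687-18322768 on the plus strand. Transcripts of the opposite strand are annotated over Krt7 (Gm671), Cftr (Gm15592), Prom1 (Gm16401) and Sox4 (Gm26735, a lincRNA). On the same strand, Gm42793 overlaps Spp1, Gm42716 overlaps Prom1 and the pseudogene Gm15595 overlaps Cftr. None of these has a row of its own in the table. The strandedness of the libraries is not given in the sources used here, so reads of the opposite-strand pairs could not be separated.

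Sequences before an annotated start were available from RefSeq (GRCm38.p6) for 6 of the 9 genes, in 8 windows of 250 bases. Krt19, Sox9 and Cd24a had no entry. The windows of Spp1, Cftr and Epcam are printed because these genes rose and their windows differ in base composition, and because no annotated exon covers them. They are given 5′ to 3′ on the strand of the gene, all 3 of them the plus strand, and end at the base before the start. The Spp1 window is chr5:104434861-104435110, the Cftr window chr6:18170437-18170686 and the Epcam window chr17:87635729-87635978. Capitals mark the promoter elements searched for on either strand. The letters of the first element, known to bind the TATA-binding protein, were TATAAA. Those of the GC box, which is bound by Sp1 and its relatives, were GGGCGG. Those of the third element, bound by the factor NF-Y, were CCAAT.
Spp1: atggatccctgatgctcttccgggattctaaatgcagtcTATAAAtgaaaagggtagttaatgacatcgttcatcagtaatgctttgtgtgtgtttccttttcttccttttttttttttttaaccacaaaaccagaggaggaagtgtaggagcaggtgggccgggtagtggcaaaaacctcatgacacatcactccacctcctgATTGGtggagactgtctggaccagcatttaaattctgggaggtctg
Cftr: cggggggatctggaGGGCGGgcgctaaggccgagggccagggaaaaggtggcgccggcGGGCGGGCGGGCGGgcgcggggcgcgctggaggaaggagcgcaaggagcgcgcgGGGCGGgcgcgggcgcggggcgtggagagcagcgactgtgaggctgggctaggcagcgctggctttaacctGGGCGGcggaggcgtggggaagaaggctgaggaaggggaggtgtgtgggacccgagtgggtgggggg
Epcam: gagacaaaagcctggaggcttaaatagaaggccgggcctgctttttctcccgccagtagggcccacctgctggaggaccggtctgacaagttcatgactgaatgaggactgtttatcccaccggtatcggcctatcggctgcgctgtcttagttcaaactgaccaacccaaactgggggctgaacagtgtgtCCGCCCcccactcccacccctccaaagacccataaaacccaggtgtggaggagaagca
The Spp1 window was 43.6% G or C with 3 CpG dinucleotides, and the Cftr window was 76.4% G or C with 30. The Epcam window lay between these, at 56.4% with 8, and the median of all 32851 windows was 52.4% with 6. The Cftr window held 6 GC boxes, some of which overlap, and the Epcam window held 1. The Spp1 window held no GC box, 1 match to the letters TATAAA whose first base lay 211 bases before the start, and 1 CCAAT box at 46 bases. All the elements named here are matches of letters only, and binding or use as a promoter was not tested. Over the 8 windows, GC boxes occurred in 4, CCAAT boxes in 3 and a TATA box in 1, against 32.7%, 33.8% and 12.4% of all windows. The letters GGAATG (TEAD) occurred in 1 of 8 windows, TGANTCA (AP-1) in 2, both of Prom1, TGGGAA (RBPJ) in 2, and AACAAT (SOX) in 0, against 12.6%, 6.75%, 21.6% and 9.42% of all windows. No marked element occurred in all 3 printed windows.

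All 9 genes had enough counts to be tested, and each of the 9 passed the threshold in the direction of Hom (adjusted p below 0.05 in the edgeR fit of 13805 genes). The same call was made for 21.5% of all tested genes. With a log2 fold change of at least 1 also required, the call was again made for all 9, against 13.2% of tested genes. In each of the 9, the lowest Hom liver lay above the highest WT liver in CPM, which held for 28.7% of tested genes. The log2 fold changes ran from 1.00 for Sox9 to 4.78 for Prom1, with a median of 3.18, while the median of all tested genes was −0.0018. The number called was 9 without Hom replicate 1 (median log2 fold change 3.28) and 8 without Hom replicate 3, where Sox9 was no longer past the threshold. In bulk tissue, more cells of a type and more RNA per cell cannot be told apart.

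**Figure D1:**
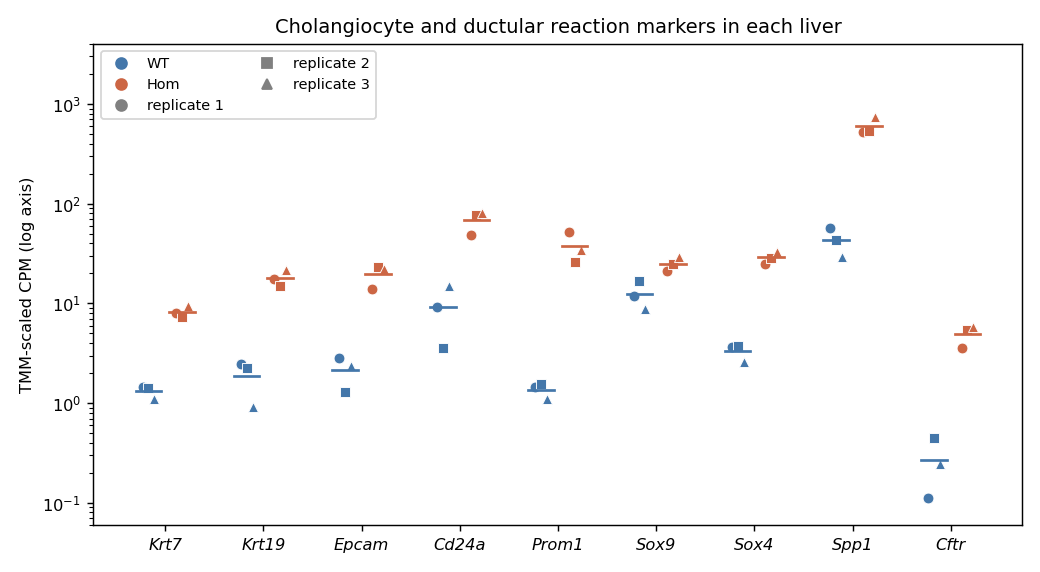
TMM-scaled CPM (log axis) of the 9 markers in each of the 3 WT livers (blue) and 3 Hom livers (orange), with symbols for the replicate number and a line at each group mean. The groups do not overlap for any of the 9 genes, and the gap is narrowest for Sox9, whose lowest Hom liver was 1.25 times its highest WT liver.

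The keratins Krt7 and Krt19, intermediate filament proteins of ductal epithelium, were scarce in WT livers. In the order of replicates 1, 2 and 3, here and for the genes that follow, Krt19 had 44, 35 and 15 counts in the WT group. The Hom group had 380, 366 and 499. In CPM this was 2.46, 2.24 and 0.922 in the WT livers and 17.7, 15.1 and 21.5 in the Hom livers. Every Hom liver was at least 6.14 times the highest WT liver, and Krt19 rose by 3.26 on the log2 scale (standard error 0.33, adjusted p = 8.06e-04, edgeR), or 9.60-fold. Krt7 had 1.45, 1.41 and 1.11 CPM in WT livers and 8.03, 7.30 and 9.31 in Hom livers. It rose by 2.63 (standard error 0.20, adjusted p = 3.69e-04, edgeR), or 6.18-fold, with the smallest relative spread of the 9 genes in both groups (coefficient of variation 14.3% in WT and 12.4% in Hom livers). In CPM the 2 keratins kept the same order over the 3 Hom livers, with replicate 3 highest and replicate 2 lowest. Hom replicate 1, the liver with the high mesothelial sum, was the middle one for both in CPM. In the deposited TPM values, scaled for gene length and library total, it was the lowest Hom liver for both (10.7 for Krt7 and 28.6 for Krt19). Without this liver the log2 fold changes were 2.64 for Krt7 and 3.28 for Krt19.

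Among the surface proteins, Prom1 (CD133), a membrane glycoprotein of epithelial progenitor cells, changed most of all 9 genes. It had 26, 24 and 18 counts in WT livers and 1126, 638 and 794 in Hom livers. In CPM the WT livers were at 1.45, 1.54 and 1.11 and the Hom livers at 52.6, 26.3 and 34.2. The log2 fold change was 4.78 (standard error 0.32, 95% interval 4.03 to 5.53, adjusted p = 2.59e-04, edgeR), or 27.5-fold. Of all tested genes, 0.413% had a larger log2 fold change. Prom1 was also the one marker with its highest value in Hom replicate 1, and without that liver its log2 fold change was 4.46. Epcam, a cell adhesion molecule that adult hepatocytes lack, had 2.85, 1.28 and 2.33 CPM in WT livers and 13.9, 23.1 and 22.2 in Hom livers. This was a rise of 3.18 (standard error 0.32, adjusted p = 7.88e-04, edgeR), or 9.07-fold, with Hom replicate 1 lowest. Cd24a, a small glycoprotein anchored in the membrane, had 9.10, 3.59 and 14.8 CPM in WT livers and 48.9, 76.6 and 81.4 in Hom livers. Its log2 fold change was 2.91 with the widest standard error of the 9 genes, 0.46 (adjusted p = 0.00337, edgeR), and its WT values spread over a coefficient of variation of 61.2%. Neutrophils also carry Cd24a. The sum of the neutrophil marker genes was 190 CPM in WT replicate 1 and 9.94 and 18.1 CPM in WT replicates 2 and 3, and its part in the Cd24a values was not tested.

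The 2 SOX transcription factors differed in the size of their change. Sox9, which marks the ductal plate and bile ducts, was already the third most abundant of the 9 in WT livers per transcript length. It had 11.8, 16.7 and 8.85 CPM in WT livers and 21.0, 25.0 and 29.0 in Hom livers. The rise was 1.00 on the log2 scale (standard error 0.24, 95% interval 0.45 to 1.56, adjusted p = 0.0148, edgeR), or 2.01-fold, and 15.3% of all tested genes had a larger log2 fold change. This was the smallest change of the 9 genes. It was also the one call that rested on a single liver: without Hom replicate 3 the log2 fold change was 0.89 (adjusted p = 0.0574, edgeR), and over the other alternatives it ran from 0.80 to 1.47. Sox4, a related factor of progenitor cells, had 3.69, 3.72 and 2.58 CPM in WT livers and 25.0, 28.6 and 33.0 in Hom livers. It rose by 3.11 (standard error 0.18, adjusted p = 1.85e-04, edgeR), or 8.66-fold, and had the smallest adjusted p of the 9. The 95% interval of Sox4, 2.68 to 3.54, did not overlap that of Sox9.

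Spp1 encodes osteopontin, a secreted matrix-binding protein, and was by far the most abundant of the 9 genes. It had 1028, 673 and 477 counts in WT livers and 11144, 12963 and 16995 in Hom livers. In CPM these were 57.4, 43.2 and 29.3, and 520, 534 and 733. The lowest Hom liver was 9.06 times the highest WT liver, and the log2 fold change was 3.78 (standard error 0.29, adjusted p = 3.69e-04, edgeR), or 13.8-fold. Spp1 is also made by macrophages, and of 17 macrophage marker genes 6 were higher, 2 were lower and 9 were not called. The higher ones, with their log2 fold changes, were Trem2 (3.31), Ccr2 (3.19), Itgax (2.97), Cd9 (2.30), Lyz2 (1.30) and Cd68 (0.78). The lower ones were Clec4f (−1.59) and Timd4 (−2.38). The summed CPM of all 17 was 397 to 921 in WT and 797 to 984 in Hom livers. The part of macrophages in the Spp1 result was not tested. Cftr, the chloride channel that drives ductal secretion, was the least abundant. It had 2, 7 and 4 counts in WT livers and 77, 131 and 135 in Hom livers. The log2 fold change was 4.20 (standard error 0.44, adjusted p = 9.13e-04, edgeR). From the summed counts, 13 against 343, each divided by its group's TMM-scaled library sizes, the ratio was 19.1 with an exact 95% interval of 11.0 to 36.2 that covers counting error only.

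**Figure D2:**
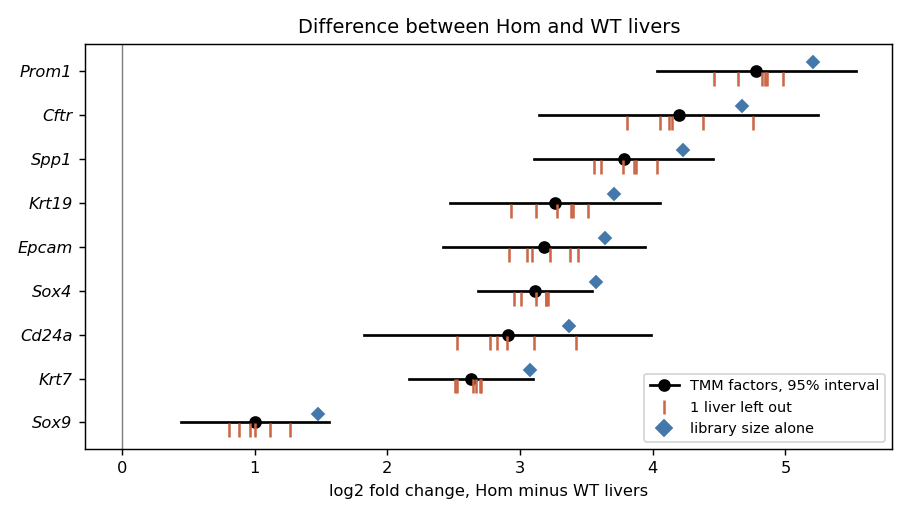
Log2 fold change of each marker between Hom and WT livers (x axis), with the TMM-scaled estimate and its 95% interval in black, the 6 estimates that each leave out 1 liver as orange ticks, and the estimate with library size alone as blue diamonds. Sox9, at 1.00, sits apart from the other 8 genes, which lie between 2.63 and 4.78, and scaling by library size alone moves each gene to the right.

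The place of each liver within its group, by CPM, was counted over the 9 genes. Hom replicate 3 was highest of the Hom livers in 7 of 9 and Hom replicate 1 lowest in 6 of 9. WT replicate 3 was lowest of the WT livers in 6 of 9, the exceptions being Epcam, Cftr and Cd24a. The mean of the standardized log2 CPM of the 9 genes was −0.80, −0.82 and −1.01 across the WT livers, and 0.76, 0.86 and 1.02 across the Hom livers. Outside the 9 genes, the 5 tested genes whose log2 CPM followed this mean most closely were Cx3cl1 (Pearson r = 0.9991), Bgn (0.9988), Scube1 (0.9984), Fblim1 (0.9982) and Dqx1 (0.9982). The r is a description over 6 livers that share their libraries and fall into 2 groups. The log2 fold changes of these genes were 3.40 for Cx3cl1, 1.28 for Bgn, 4.90 for Scube1, 2.82 for Fblim1 and 0.95 for Dqx1. Of the 9 markers, Sox4 (r = 0.9994) was closest to the mean and Sox9 (r = 0.908) furthest from it. Each marker is itself part of that mean, so these 9 values of r are raised by the overlap.

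Levels of different genes were compared as TPM, which the authors divided by gene length. In WT livers the order was Spp1 (46.5 ± 20.0 TPM; SD, n = 3), Cd24a (7.50 ± 4.38), Sox9 (4.38 ± 1.31), Krt19 (2.39 ± 1.30), Epcam (1.58 ± 0.73), Krt7 (1.25 ± 0.29), Sox4 (1.02 ± 0.27), Prom1 (0.55 ± 0.12) and Cftr (0.060 ± 0.036). Neighbours from Cd24a to Sox4 overlapped between livers, and Spp1, Prom1 and Cftr did not overlap with the neighbours beside them. In Hom livers Spp1 (965 ± 222 TPM; SD, n = 3) and Cd24a (87.5 ± 26.9) again came first, followed by Krt19 (33.2 ± 6.64), Prom1 (22.6 ± 6.34), Epcam (22.0 ± 6.90), Sox9 (13.6 ± 2.85), Sox4 (13.6 ± 2.56), Krt7 (11.8 ± 1.64) and Cftr (1.77 ± 0.52). Each neighbouring pair from Krt19 to Krt7 overlapped. Prom1 moved from the eighth place to the fourth, and Sox9 from the third to the sixth.

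To follow this change of order without any scaling between libraries, the TPM of each marker was divided by that of Krt19 in the same liver. The 8 ratios were chosen after the values were seen. Relative to Krt19, Sox9 was at 1.37, 1.98 and 3.12 in WT livers and at 0.365, 0.476 and 0.393 in Hom livers. The groups did not overlap, with a log2 difference of −2.32 (p = 0.1 by a two-sided exact permutation test, which with 3 against 3 livers cannot go lower; 0.267 after Benjamini-Hochberg adjustment over 8 ratios). Prom1 to Krt19 was 0.188, 0.213 and 0.436 in WT livers and 1.03, 0.565 and 0.522 in Hom livers, again without overlap (log2 difference 1.37, exact permutation p = 0.1, adjusted 0.267). Krt7 to Krt19 was 0.446, 0.444 and 1.03 in WT livers and 0.372, 0.370 and 0.336 in Hom livers, with no overlap and a log2 difference of −0.71 (exact permutation p = 0.1, adjusted 0.267). The ratio in WT replicate 3 rested on 15 counts of Krt19. For the other 5 genes the groups overlapped, among them Sox4 (0.511 ± 0.239 in WT and 0.412 ± 0.052 in Hom livers; SD, n = 3) and Spp1 (21.9 ± 8.02 and 29.0 ± 1.76).

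**Figure D3:**
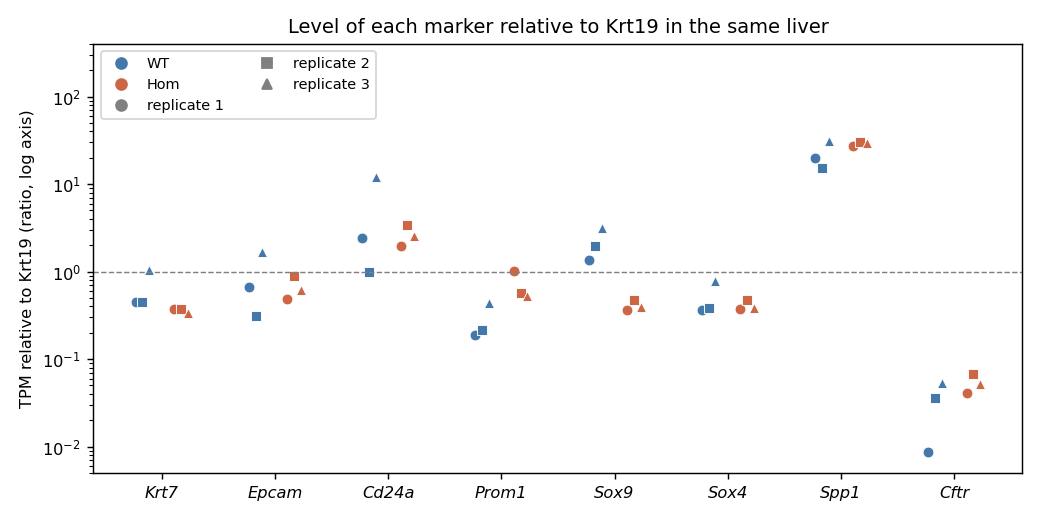
TPM of 8 markers divided by the TPM of Krt19 in the same liver (log axis), in 3 WT (blue) and 3 Hom (orange) livers, with the dashed line at equal levels. Sox9 lay above Krt19 in each WT liver and under it in each Hom liver, the Prom1 ratio was higher in each Hom liver, and the Sox4 ratio overlapped between groups.

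Other genes of the biliary epithelium were read from the same fit, in 4 hand-written lists that hold none of the 9 markers. Of their 64 genes 61 were tested, of which 39 were higher, 3 were lower and 19 were not called, with a median log2 fold change of 1.14. Over all tested genes 21.5% were higher and 20.1% lower. Without Hom replicate 1, 37 were higher and 2 lower of 62 tested.

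The epithelial list, of keratins, adhesion molecules and surface proteases, had 10 of 14 genes higher and 1 lower. Cdh1, which encodes E-cadherin, rose from 50.6 ± 1.37 to 148 ± 10.3 CPM (SD, n = 3 each). Its log2 fold change was 1.54 (standard error 0.084, adjusted p = 1.59e-04, edgeR). Krt8 and Krt18, the keratin pair that hepatocytes also make, rose by 1.75 and 1.55 (adjusted p = 5.88e-04 and 0.00168, edgeR), less than the ductal keratins Krt7 and Krt19. The log2 fold changes of both pairs come from 1 fit, and the difference between pairs was not tested. Lgals4, a galectin, fell from 18.4 ± 2.45 to 5.49 ± 1.38 CPM (SD, n = 3 each; adjusted p = 0.00132, edgeR). Dsp, which encodes desmoplakin, was not called (69.4 and 101 CPM, adjusted p = 0.0883, edgeR). Krt23, a further keratin singled out after its values were seen, had 69 counts in WT replicate 3 against 16 and 20 in the other WT livers. It was not called (log2 fold change 0.47, adjusted p = 0.556, edgeR).

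Of 13 biliary transcription factor genes 6 were higher, 1 was lower and 6 were not called. Elf3, an epithelial ETS factor, changed most. It had 9, 8 and 12 counts in WT livers and 582, 579 and 961 in Hom livers, a rise of 5.71 on the log2 scale (standard error 0.30, adjusted p = 1.59e-04, edgeR). Its relative Ehf rose by 3.21 (adjusted p = 0.00361), from 1.12, 0.770 and 3.69 CPM in WT livers to 13.9, 20.0 and 17.7 in Hom livers, and Gata6 by 0.88 (adjusted p = 0.00356), both from the edgeR fit. Without WT replicate 3 the log2 fold change of Ehf was 4.16. Foxa1, shared by hepatocytes and ducts, fell by 0.98 (adjusted p = 0.0388, edgeR), a call that did not hold in 5 of the 6 fits that left out 1 liver. It held with DESeq2 and with the replicate block. The call was lost in edgeR with upper-quartile factors (−0.89, adjusted p = 0.0543) and with library size alone (−0.49, adjusted p = 0.194). It was also lost with limma on log2(TPM + 1) (−0.29, adjusted p = 0.373). The factors with at least 10 CPM and no call by edgeR were Hhex (log2 fold change −0.65), Onecut2 (0.28), Hes1 (0.79), Foxa3 (−0.17) and Onecut1 (−0.60). Hhex was called lower by DESeq2 (adjusted p = 0.0217), and by edgeR without WT replicate 1 (0.0130) or Hom replicate 2 (0.0462). Hes1, a target of Notch signalling, spread over 6.21 to 13.9 CPM in WT and 11.0 to 22.9 CPM in Hom livers, so the groups overlapped (adjusted p = 0.115, edgeR).

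The list of transport and cilium genes had 9 of 16 tested genes higher, 1 lower and 6 not called. Bicc1, an RNA-binding protein of ductal cells, rose by 3.15 (standard error 0.24, adjusted p = 3.75e-04, edgeR), from 5.87 ± 2.07 to 52.5 ± 3.64 CPM (SD, n = 3 each). Slc5a1, a sodium-glucose cotransporter, rose by 2.93 (adjusted p = 4.82e-04), and Sctr, the receptor for secretin, had 2, 3 and 0 counts in WT livers and 43, 101 and 104 in Hom livers (adjusted p = 0.00187, both from edgeR). From summed counts divided by TMM-scaled library sizes the Sctr ratio was 35.8, with an exact 95% interval of 15.2 to 111 for counting error only. The log2 fold change of Sctr was 5.06, and 5.79 without WT replicate 2. Secretin acts on cholangiocytes to open Cftr, and both genes had at most 7 counts in any WT liver. Aqp1, a water channel of ducts and of endothelium, fell by 0.72 (adjusted p = 0.00977, edgeR). With library size alone the log2 fold change of Aqp1 was −0.28 (adjusted p = 0.139, edgeR). Slc4a2, the chloride-bicarbonate exchanger that works beside Cftr, was at 40.4 ± 2.14 and 41.4 ± 2.07 CPM (SD, n = 3 each) and was not called (adjusted p = 0.750, edgeR). With library size alone it was called higher (log2 fold change 0.48, adjusted p = 0.00959, edgeR). Pkd1 (log2 fold change 0.15), Abcc3 (−0.26) and Atp1b1 (0.57) were not called either.

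Among 18 tested signalling and matrix genes of the ductular reaction, 14 were higher and 4 were not called. Mmp7, a matrix metalloproteinase of injured epithelium, had 13, 1 and 2 counts in WT livers and 709, 1081 and 1011 in Hom livers. The ratio of summed counts divided by TMM-scaled library sizes was 126 (exact 95% interval 77.7 to 222, counting error only), and the adjusted p was 2.65e-04 (edgeR). WT replicate 1 held 13 of the 16 WT counts, and without it the log2 fold change moved from 6.96 to 8.65, so the interval does not cover the spread between livers. Tnfsf12, which encodes TWEAK, a cytokine that acts on biliary progenitors, rose by 1.24 (adjusted p = 4.65e-04), and Osmr, the oncostatin M receptor, by 2.13 (adjusted p = 2.83e-04, both from edgeR). Tnfrsf12a, the receptor of TWEAK, rose by 2.28 (adjusted p = 0.00124, edgeR) and was singled out after its values were seen. Ccn2 (log2 fold change 0.22) and Fgfr2 (0.13) were not called.

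Marker genes of other cells moved in the same comparison, and their part in the results on the 9 markers was not tested. Of 20 hepatocyte genes 14 were lower and 6 were not called (median log2 fold change −0.82), with Alb at 114169 CPM in WT and 47689 in Hom livers. Their summed CPM was 184400 to 218900 in WT and 82050 to 113100 in Hom livers. Of 16 stellate cell and fibroblast genes 9 were higher and 1 lower (431 to 530 CPM in WT and 821 to 929 in Hom livers). Of 13 endothelial genes 2 were higher and 5 lower (254 to 343 and 227 to 235 CPM). Of 12 proliferation genes 12 were higher (5.97 to 17.8 and 32.0 to 66.7 CPM). These lists differ in direction: hepatocyte and endothelial sums were lower, and those of fibroblasts and of dividing cells higher, in every Hom liver than in every WT liver.

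Other cells share single markers with the ducts. Of 7 tested mesothelial genes, which matter for the keratins, 2 were higher, Wt1 and Gpm6a, and the sums overlapped (7.68 to 15.1 and 9.81 to 48.3 CPM). Of 9 tested neutrophil genes 0 were called by edgeR, where 0 had an unadjusted p under 0.05, and 0 of the 7 with a p were called by DESeq2. The sums overlapped (9.94 to 190 and 29.4 to 79.1 CPM). Of 8 tested lymphocyte genes 2 were higher, Cd3g and Cd3e, with sums of 7.18 to 11.4 and 10.6 to 17.7 CPM, while the B cell gene Cd79a was not called (log2 fold change 1.00, adjusted p = 0.296, edgeR). Of 7 tested erythroid genes 2 were lower, Alas2 and Klf1 (529 to 1416 and 709 to 2166 CPM). Hbb-b2 was at 0 in every Hom liver, and its only WT count was 1 in replicate 2. Pancreatic acinar genes, looked at because pancreatic ducts share Sox9, Krt19 and Cftr, had a row for 6 of 12. Prss2 was at 0 in every WT liver, and its only Hom count was 1 in replicate 2. Ctrb1 and Cela3b were at 0 in every Hom liver, with only 2 counts in WT replicate 1 and 1 in WT replicate 2. These genes were thus near 0 in both groups. Of the 2 tested Cela1 was lower (9.55 to 27.6 and 3.13 to 5.22 CPM for the list).

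**Figure D4:**
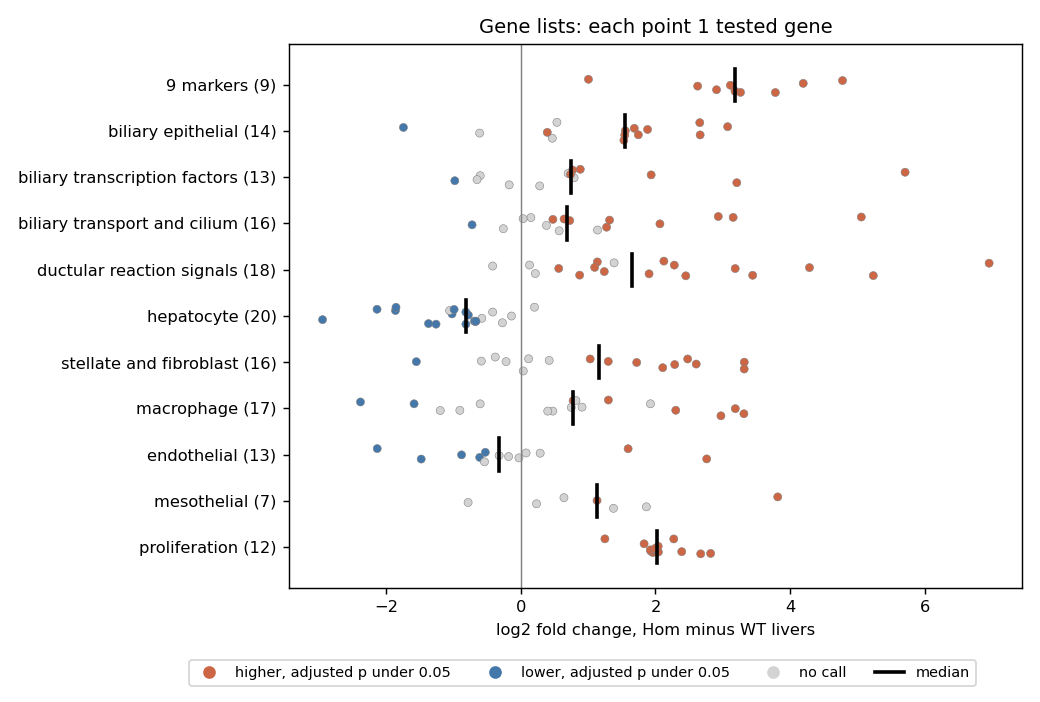
Log2 fold change between Hom and WT livers (x axis) of each tested gene in the 9 markers, the 4 other biliary lists and 6 lists for other cells or proliferation, with the number tested in brackets, calls in colour and a black line at the median. The medians are 3.18 for the 9 markers, 1.55, 0.74, 0.68 and 1.64 for the biliary lists in the order shown, and −0.82 for hepatocyte genes.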

How the data were processed

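RNA of 3 Hom and 3 WT livers was extracted with Trizol and sequenced on the DNBSEQ platform. The submitters' processing notes name HISAT2 2.0.4, Bowtie2 2.2.5, RSEM 1.2.12 and the build mm9; the annotation and strandedness are not given in the sources used here. The authors deposited estimated counts of reads, not normalized, for each liver over 17975 genes. The deposited TPM values were scaled by the authors for gene length and library total, as were FPKM values. The deposited mean columns of each group equal the means of the other group and were not used, nor were the FPKM values. TPM served only for levels between genes and 1 alternative.

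Estimated counts were rounded. The fit was made with edgeR 4.0.16 under R 4.3.3 (13805 genes kept by filterByExpr; TMM factors 0.81 to 0.92 in WT and 1.09 to 1.23 in Hom livers; glmQLFit and glmQLFTest; Benjamini-Hochberg adjusted p under 0.05), a procedure tested on simulated data. Standard errors came from the F statistic. Totals of 19349418 to 19730236 counts limit precision only for genes with few counts. Alternatives were DESeq2 1.42.0, other scalings and filters, limma 3.58.1 on log2(TPM + 1), a replicate block, leaving out 1 liver at a time, and a fold minimum. The genes described and all lists were chosen with earlier results of these data known. Besides the 9 markers and Nek7, the rule named the 3 higher and 3 lower called genes with the smallest adjusted p of each biliary list, uncalled genes of at least 10 CPM, and the 5 genes most like the markers' mean; other names were chosen after their values were seen. Each liver is from 1 mouse. The values of 1 gene of the biliary lists are not reported here.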

Additional observations from a re-analysis of the deposited data

How the results depend on the processing

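Of 116 comparisons of a single marker gene with an alternative, 115 kept the direction and the side of the threshold. The exception was Sox9 without Hom replicate 3. With at least 10 counts in every liver Cftr was not tested, and 8 of 8 markers were called. With library size alone the median of all tested genes moved to 0.45, the median of the markers to 3.64, and 6574 genes were higher and 642 lower (91.1% of calls higher, against 51.7% with TMM and 62.8% with upper-quartile factors). With limma on log2(TPM + 1) 8801 genes were called, 8368 higher and 433 lower; there the log2 fold change of Cftr was 1.37, since the added 1 exceeds its WT level. When a log2 difference of 1 or more was also required, 2400 genes were called, 1825 higher and 575 lower. Under each of these 3 settings 1 of the other biliary genes was lower. With 1 liver left out, 3753 to 5807 genes were called, 1986 to 3057 higher and 1767 to 2750 lower, the marker median was 3.09 to 3.43, and 2 to 5 other biliary genes were lower. The count of lower genes moved by over 1.5 times without Hom replicate 2 (1829) and without Hom replicate 3 (1767), and that of lower biliary genes without WT replicate 1 (5). Of the biliary genes named as not called, Atp1b1, Ccn2, Dsp, Fgfr2, Hes1, Onecut2, Pkd1 and Slc4a2 were called higher both with library size alone and with TPM. Onecut2 was also called with upper-quartile factors, Dsp without WT replicate 3, and Hes1 and Hhex with the replicate block. Reversed were Abcc3 (0.21 with library size alone and 0.36 with TPM, where it was called higher at an adjusted p of 0.0338 by limma; it was called lower without WT replicate 1, −0.34), Foxa3 (0.28 and 0.43), Onecut1 (0.42 with TPM, and from −1.13 to 0.14 with 1 liver left out, the latter without WT replicate 3) and Slc4a2 (−0.0093 to 0.071 with 1 liver left out, below 0 without WT replicate 3 and, at −0.0014, without Hom replicate 1); the cause was not tested.

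The labels number the livers of both groups 1 to 3, but they are different mice. With the replicate block 4597 genes and all 9 markers were called. Same-numbered livers did not deviate together (correlations of −0.11, −0.056 and −0.049).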
